A study of Sus scrofa with 67 samples.

Results

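The oviduct of pigs on day 18 of the oestrous cycle was compared with the oviduct on day 0, when oestrous behaviour began, to find the genes that differ between the late follicular phase and oestrus. The comparison used 6 of the 66 libraries in the deposited count table, namely the 3 oviduct libraries of day 18 and the 3 of day 0. They were chosen by tissue and day alone, and all genes in the table were considered. Each library was made from poly-A RNA of the ampulla, the wide upper segment of the oviduct, of crossbred (Landrace × Yorkshire) gilts, which are young female pigs, here of similar age and with earlier normal cycles. The study's methods give 3 gilts for each day. No agent, allele or transgene was involved, and the groups differ in the stage of the natural cycle. Libraries are named here by the number they carry in the table.

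In the days before oestrus the corpora lutea have regressed, progesterone is low and the growing follicles release oestrogen, which peaks around oestrus, before ovulation. The ampulla receives the oocytes and is where fertilization takes place. Its lining holds secretory cells, which release the oviductal glycoprotein OVGP1, and ciliated cells, which move the oocyte, and both respond to oestrogen and progesterone. In such a piece of tissue, fewer cells of a type and less RNA per cell cannot be told apart.

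Total counts were 10034096 to 11573086 per library on day 0 and 10687956 to 11511218 on day 18, so that 3 counts, taken as the lowest detectable level, correspond to 0.259 to 0.299 CPM, the count scaled to a common library total. Pearson's r of log2(CPM + 1) across genes, which are not independent replicates, was 0.970 to 0.982 between the day 0 libraries and 0.935 to 0.960 between the day 18 libraries. Library 3 of day 18 had an r of 0.981 with library 2 of day 0, above its r with either other day 18 library. Library 2 of day 18 had the fewest genes with a count (17109), the lowest normalization factor (0.797) and r values of 0.912 to 0.939 with day 0. No pair of the 6 libraries agreed within counting noise, with a chi-squared per degree of freedom of at least 17.6. OVGP1 and FOXJ1, the master regulator of motile cilia, were present in all 6 libraries, with FOXJ1 at 1206 to 1592 CPM. Of 22 listed markers of ciliated epithelium 14 were matched to an identifier, and of 18 of secretory epithelium 10. Among the latter, MSX1 had 3 counts in library 1 of day 0. EPCAM, an adhesion molecule of epithelia, was at 363 to 409.8 CPM on day 0 and at 433 to 672 CPM on day 18.

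On day 18, the growth regulator MYC, the nucleolar GTPase gene GNL3, the matrix protease MMP7 and the complement protease CFD were higher than on day 0. Genes for the secreted or matrix-bound proteins CPAMD8, PAPPA2, ADAMTS14 and FRAS1, the glutamate transporter SLC1A6 and the transcriptional coactivator CITED1 were lower. Of 15665 genes tested, 36 (0.23%) passed an adjusted p of 0.05 (quasi-likelihood test of edgeR, adjusted by Benjamini and Hochberg), 22 higher (0.14%) and 14 lower (0.0894%) on day 18. A gene that passed this test is referred to as called. At an unadjusted p under 0.05, 3037 genes (19.4%) differed, 1840 higher (11.7%) and 1197 lower (7.64%). In 1637 genes (10.5%) every day 18 library lay above every day 0 library, and in 1583 (10.1%) every one lay below. All 36 called genes were among these.

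**Figure D1:**
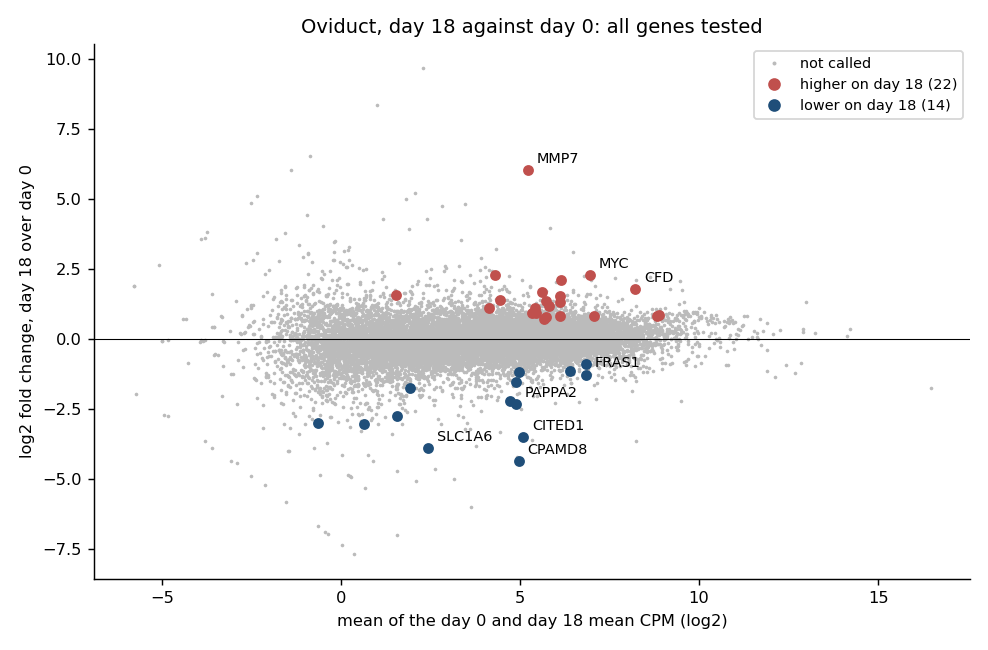
Each point is 1 gene tested in the oviduct and counted in at least 1 of the 6 libraries. The x axis gives the log2 of the mean of the day 0 and day 18 mean CPM and the y axis the log2 fold change of day 18 over day 0. The 22 called genes that were higher on day 18 are in red, with MMP7 at the top at 6.02, and the 14 that were lower are in blue, with CPAMD8 at the bottom at -4.37. Uncalled genes with larger changes lie mostly at low CPM.

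The calls were close to the threshold, since 377 genes had an adjusted p under 0.075, and their number depended on single libraries. Without library 3 of day 18, 1308 genes were called, including all 36. Without any other single library, 2 to 25 genes were called, and of the 36 there remained 2 without day 0 library 1, 16 without day 0 library 2, 5 without day 0 library 3, 1 without day 18 library 1 and 2 without day 18 library 2. A fit of the 6 libraries alone called 0 genes, with 1758 at an unadjusted p under 0.05, and DESeq2 on all oviduct libraries called 889, including 35 of the 36. No called gene changed its direction in the fits it was part of, with RORB filtered out of the fit of the 6 libraries alone. CPAMD8 stayed called in 4 of the 6 fits that left out 1 library, and ENSSSCG00000026608, an identifier without a symbol, in 5 of 6. GNL3, MMP7, FRAS1 and CITED1 stayed called in 2 of 6, and MYC, CFD, ADAMTS14, SLC1A6 and PAPPA2 in 1 of 6.

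Library 3 of day 18 was the nearest to day 0 of the day 18 libraries in 22 of the 22 called genes that were higher. Over these genes, the median log2 ratio to the day 0 mean was 1.34 in library 1 of day 18, 1.29 in library 2 and 0.79 in library 3. Over the 14 called genes that were lower it was -2.48, -2.14 and -1.77, and library 3 was the nearest to day 0 in 6 of the 14. Library 2 was the nearest in another 6. The farthest from day 0 among the higher genes was library 2 in 13 and library 1 in 9.

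**Figure D2:**
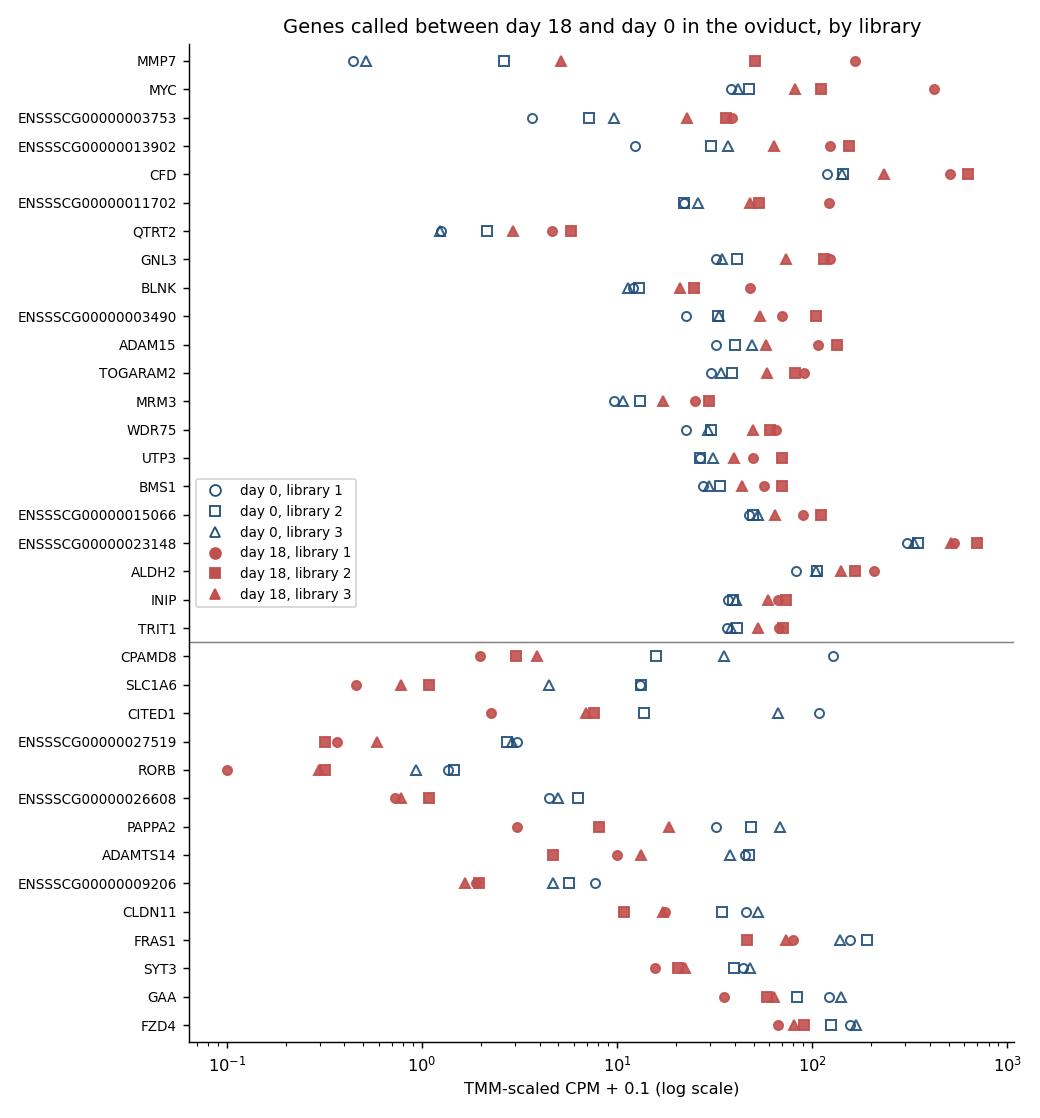
Each row is a called gene, ordered by fold change within its direction, with 21 of the 22 higher on day 18 above the line and the 14 lower below it. The x axis gives the CPM after TMM scaling plus 0.1, on a log scale, with open blue symbols for the 3 day 0 libraries and filled red symbols for the 3 day 18 libraries. In every row the red and the blue symbols do not overlap, and library 3 of day 18 (red triangle) is the leftmost red symbol in all 21 rows above the line.

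MYC (ENSSSCG00000005965) is a transcription factor that drives cell growth, ribosome production included. Its level was 38.2, 47.2 and 41.6 CPM in the day 0 libraries and 423, 111 and 81.3 CPM in the day 18 libraries, a log2 fold change of 2.28 ± 0.45 (SE, adjusted p = 0.0443). The day 0 values lay close together, and library 1 of day 18 stood far above the other 2. Without that library the log2 fold change was 1.18.

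Called genes that were higher include GNL3, WDR75, UTP3 and BMS1, whose proteins are found in the nucleolus, where ribosomal RNA is made and assembled. They are set together here by their known roles, with no list of nucleolar genes tested. GNL3 (ENSSSCG00000011449), the nucleolar GTPase nucleostemin, was at 31.8, 41.1 and 34.2 CPM on day 0 and at 123, 114 and 73.2 CPM on day 18, a log2 fold change of 1.54 ± 0.27 (adjusted p = 0.0366). WDR75 (ENSSSCG00000016036), UTP3 (ENSSSCG00000028466) and BMS1 (ENSSSCG00000010198) belong to the small-subunit processome, the particle that matures the RNA of the small ribosomal subunit. WDR75 was at 22.4, 30.2 and 29.0 CPM on day 0 and at 65.1, 60.5 and 49.5 CPM on day 18, a log2 fold change of 1.1 ± 0.20. UTP3 was at 26.3, 26.5 and 31.0 CPM on day 0 and at 49.5, 70.1 and 39.4 CPM on day 18, a log2 fold change of 0.92 ± 0.18. BMS1 was at 27.4, 33.6 and 29.4 CPM on day 0 and at 56.8, 70.3 and 43.6 CPM on day 18, with the same log2 fold change of 0.92 ± 0.18. For all 4, the day 0 libraries differed little and the lowest day 18 library was library 3. WDR75, UTP3 and BMS1 lie outside the rule for named genes and were chosen after their values were seen, as were MRM3, TRIT1, ALDH2, INIP, RORB and FZD4 in what follows.

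QTRT2, MRM3 and TRIT1 encode proteins of enzymes that modify RNA, and are likewise set together by role alone. QTRT2 (ENSSSCG00000011912), a subunit of the enzyme that puts queuine into transfer RNA, was at 1.15, 2.04 and 1.14 CPM on day 0 and at 4.56, 5.67 and 2.83 CPM on day 18 (log2 fold change 1.58 ± 0.32, adjusted p = 0.0492). MRM3 (ENSSSCG00000017806), a methyltransferase of mitochondrial ribosomal RNA, was at 9.50, 13 and 10.6 CPM on day 0 and at 25.0, 29.5 and 17.0 CPM on day 18 (1.11 ± 0.21). TRIT1 (ENSSSCG00000003667), which adds an isopentenyl group to transfer RNA, was at 36.6, 41.3 and 38.3 CPM on day 0 and at 67.6, 71.0 and 52.4 CPM on day 18 (0.72 ± 0.14). The groups were apart for all 3 genes, with the highest day 18 value in library 2. INIP (ENSSSCG00000026194), part of a complex that binds single-stranded DNA, was at 36.9, 39.3 and 40.3 CPM on day 0 and at 66.7, 72.9 and 59.4 CPM on day 18 (0.77 ± 0.16).

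Families of genes with related roles were then read by their symbols. They were picked after the called genes had been seen, so their counts are a description, to be set beside the 11.7% of all genes that were higher at an unadjusted p under 0.05 and the median log2 fold change of -0.01 over all genes. Of 8 tested UTP genes, which encode processome subunits, 7 were higher at an unadjusted p under 0.05 and 0 were lower, with a median of 0.66. Of 7 NOP genes of nucleolar proteins, 5 were higher and 0 lower (median 0.63), and of 7 POLR1 genes, subunits of the polymerase that makes ribosomal RNA, 4 were higher and 0 lower (median 0.49). Of 10 EXOSC genes, subunits of the RNA exosome, 7 were higher and 0 lower (median 0.73). UTP3 was the 1 called member in these 4 families. Without library 1 of day 0 the NOP genes had 3 higher members and the POLR1 genes 2, and the POLR1 genes also had 2 without library 1 of day 18. Without library 2 of day 18 the EXOSC genes had 4.

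Among these families, POLR1G was at 12.5, 18.9 and 17.9 CPM on day 0 and at 38.4, 44.7 and 23.6 CPM on day 18, a log2 fold change of 1.11 ± 0.24, and EXOSC5 was at 6.64, 11.1 and 11.5 CPM on day 0 and at 35.1, 42.5 and 20.2 CPM on day 18, a log2 fold change of 1.74 ± 0.36. Neither passed the threshold, with an adjusted p of 0.0516 for POLR1G and 0.0515 for EXOSC5 by edgeR. In both, the groups were apart, and library 2 was the highest and library 3 the lowest of day 18.

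The genes of the ribosomal proteins themselves were highest in library 2 of day 18. Of 27 tested RPL and RPS genes, 24 were higher at an unadjusted p under 0.05 and 0 were called, with a median log2 fold change of 0.69. Their summed level was 15942, 17842 and 19780 CPM in the day 0 libraries and 21651, 44436 and 20757 CPM in the day 18 libraries. Libraries 1 and 3 of day 18 lay just above day 0, and library 2 stood far above all the others. Without library 2, 6 of the 27 were higher. The 43 tested MRPL and MRPS genes, for the ribosome of mitochondria, had 30 higher members, 0 called and a median of 0.49. Summed over all 44 genes with these symbols, tested or not, the levels were 1441, 1666 and 1680 CPM on day 0 and 1948, 3172 and 1804 CPM on day 18. Without library 2 of day 18, 6 of the 43 were higher, and without library 1 of day 0, 16 were. Ribosomal protein genes have many near-identical copies in the genome, so their counts are uncertain.

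**Figure D3:**
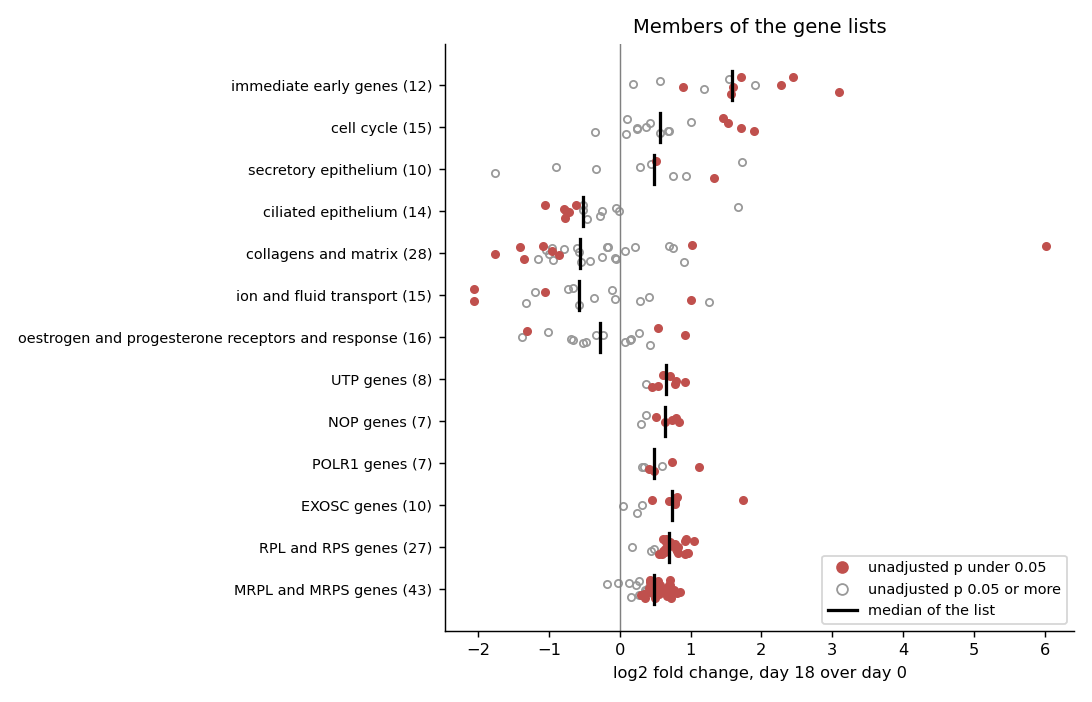
Each point is a tested member of a gene list, with the number of members in brackets, and the x axis gives its log2 fold change of day 18 over day 0 (spread in height is only for visibility). Filled points had an unadjusted p under 0.05, open points did not, and the bar is the median of the list. All tested immediate early genes and all tested UTP, NOP, POLR1, EXOSC, RPL and RPS genes lie to the right of 0, and 13 of the 14 ciliated epithelium genes to the left.

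MYC is also an immediate early gene, 1 of a set transcribed within minutes of a stimulus. Of 12 tested genes of that list, 12 had a log2 fold change above 0, with a median of 1.58. At an unadjusted p under 0.05, 7 were higher and 0 lower (11.7% and 7.64% of all genes), and MYC was the 1 called. EGR1, a zinc finger transcription factor, was at 18.4, 20.0 and 18.0 CPM on day 0 and at 339, 49.7 and 95.2 CPM on day 18 (log2 fold change 3.10 ± 1.22, adjusted p = 0.176). FOS, a subunit of the AP-1 factor, was at 42.0, 62.9 and 69.5 CPM on day 0 and at 406, 82.3 and 165 CPM on day 18 (1.90 ± 1.13). DUSP1, a phosphatase that switches off MAP kinases, was at 86.5, 57.5 and 84.9 CPM on day 0 and at 410.4, 137 and 130 CPM on day 18 (1.57 ± 0.52). In these 3 genes as in MYC, the groups were apart and library 1 of day 18 was the highest. Summed over the list, the level was 392 to 514 CPM on day 0 and 2686, 672 and 854 CPM on day 18. Without library 1 of day 18, 1 of the 12 genes was higher at an unadjusted p under 0.05.

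MMP7 (ENSSSCG00000014982), the epithelial protease matrilysin, had the largest fold change among the called genes. Its counts were 3, 26 and 4 on day 0 and 1852, 463 and 52 on day 18, which is 0.344, 2.53 and 0.416 CPM against 166, 50.5 and 5.07 CPM. The groups were apart, but the day 18 libraries covered a wide range, with library 1 the highest and library 3 the lowest. The fold was 64.7, or 6.02 ± 1.11 on the log2 scale (adjusted p = 0.0387). Without library 1 of day 18 it was 4.61 on the log2 scale, and without library 2 of day 0 it was 7.56. Over the rest of the cycle, MMP7 averaged 1.68, 31.1, 23.8, 7.77 and 49.6 CPM for days 3, 6, 9, 12 and 15.

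ADAM15 (ENSSSCG00000006533), a membrane-bound metalloprotease, was at 32.2, 40.1 and 49.1 CPM on day 0 and at 107, 134 and 57.8 CPM on day 18 (log2 fold change 1.30 ± 0.24, adjusted p = 0.0387). CFD (ENSSSCG00000013418), the serine protease factor D of the alternative complement pathway, was at 118, 143 and 141 CPM on day 0 and at 509, 629.6 and 234 CPM on day 18 (1.77 ± 0.32, adjusted p = 0.0366). BLNK (ENSSSCG00000010504), an adaptor of B cell receptor signalling, was at 12.0, 12.8 and 11.3 CPM on day 0 and at 48.0, 24.8 and 21.0 CPM on day 18 (1.37 ± 0.26, adjusted p = 0.0387). In all 3 the groups were apart, and library 3 was the lowest of day 18. Of 13 tested leukocyte markers, 3 were higher and 1 was lower at an unadjusted p under 0.05 (11.7% and 7.64% of all genes). The summed level of the 15 leukocyte markers with an identifier, tested or not, was 59.2 to 75.3 CPM on day 0 and 83.9 to 98.7 CPM on day 18. The part of leukocytes in the levels of CFD and BLNK was not tested.

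Further called genes that were higher are TOGARAM2 (ENSSSCG00000008536), with tubulin-binding TOG domains, and ALDH2 (ENSSSCG00000009889), the mitochondrial aldehyde dehydrogenase. TOGARAM2 was at 30.2, 38.6 and 33.8 CPM on day 0 and at 91.0, 81.4 and 58.5 CPM on day 18 (log2 fold change 1.17 ± 0.18, adjusted p = 0.0146). ALDH2 was at 82.8, 106 and 105 CPM on day 0 and at 206, 166 and 141 CPM on day 18 (0.80 ± 0.14, adjusted p = 0.0338). Of the 6 identifiers without a symbol, ENSSSCG00000003753 rose most, from 3.55, 7.11 and 9.56 CPM on day 0 to 38.6, 36.1 and 22.7 CPM on day 18 (2.26 ± 0.36). ENSSSCG00000013902 followed, from 12.3, 30.1 and 36.8 CPM to 123, 154 and 63.9 CPM (2.11 ± 0.34). In both, library 1 of day 0 was the lowest library. The other 4 had log2 fold changes of 0.82 to 1.68.

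Among the genes that were lower on day 18, CPAMD8 (ENSSSCG00000013869), a member of the alpha-2-macroglobulin and complement family, had the largest fold and the smallest p-value. It was at 127, 15.8 and 35.3 CPM on day 0 and at 1.88, 2.95 and 3.81 CPM on day 18, which is 20.6-fold lower (log2 fold change -4.37 ± 0.61, adjusted p = 0.00932). The spread was on day 0, where library 1 stood above the others, and the day 18 libraries lay close together. Without library 1 of day 0 the log2 fold change was -3.15. The mean was 12.99 CPM on day 3 and 1.04 to 3.32 CPM from day 6 to day 15.

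Also lower were 3 genes with roles in the extracellular matrix or at proteins held there. PAPPA2 (ENSSSCG00000015512), a protease that releases insulin-like growth factor from its binding proteins, was at 31.8, 48.2 and 68.5 CPM on day 0 and at 2.95, 7.96 and 18.4 CPM on day 18 (log2 fold change -2.34 ± 0.48, adjusted p = 0.0498). ADAMTS14 (ENSSSCG00000010272), which trims procollagen, was at 44.9, 47.1 and 37.9 CPM on day 0 and at 9.83, 4.58 and 13.1 CPM on day 18 (-2.24 ± 0.42, adjusted p = 0.0387). FRAS1 (ENSSSCG00000008991), a protein of basement membranes, was at 156, 191 and 138 CPM on day 0 and at 79.7, 46.4 and 73.0 CPM on day 18 (-1.28 ± 0.22, adjusted p = 0.0229). The groups were well apart in all 3. In PAPPA2 and ADAMTS14, library 3 of day 18 was nearest to day 0, and without it the log2 fold change of PAPPA2 was -3.17.

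The broader list of collagens and matrix genes had 28 tested members, with a median log2 fold change of -0.56. At an unadjusted p under 0.05, 6 were lower and 2 higher (7.64% and 11.7% of all genes), and MMP7 was the 1 called. COL5A1 was at 442, 389 and 458 CPM on day 0 and at 93.8, 222 and 189 CPM on day 18 (-1.35 ± 0.45), and the elastic fibre protein gene FBN1 at 64.9, 52.2 and 53.8 CPM against 26.8, 7.75 and 29.5 CPM (-1.41 ± 0.44). LOX, which crosslinks collagen, was at 19.2, 14.4 and 13.5 CPM on day 0 and at 3.49, 3.16 and 7.22 CPM on day 18 (-1.76 ± 0.69). Library 1 of day 18 was the lowest of all for COL5A1, as for COL3A1, which was at 5513, 4453 and 5912 CPM on day 0 and at 703, 4087 and 2336 CPM on day 18 (-1.16 ± 0.64, unadjusted p = 0.0863). Without that library, 2 members were lower, and with any 1 library left out 1 to 3 members were higher. The markers of fibroblasts and stroma had a summed level of 7016 to 8816 CPM on day 0 and 2705, 8237 and 4368 CPM on day 18. Library 1 of day 18 was again the lowest, and the part of stroma in the matrix genes was not tested.

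Of the other called genes that were lower, 3 act in signalling or transcription. CITED1 (ENSSSCG00000012409), a coactivator that binds CBP and p300, was at 108, 13.6 and 66.4 CPM on day 0 and at 2.15, 7.53 and 6.83 CPM on day 18 (log2 fold change -3.51 ± 0.72, adjusted p = 0.0498). Library 2 of day 0 lay near day 18, and without library 1 of day 0 the log2 fold change was -2.87. RORB (ENSSSCG00000005268), a nuclear receptor, had 11, 14 and 8 counts on day 0 and 0, 2 and 2 on day 18, at the floor of detection (-3.01 ± 0.62), and -2.41 without library 1 of day 18. FZD4 (ENSSSCG00000014920), a receptor of Wnt ligands and norrin, was at 157, 125 and 168 CPM on day 0 and at 67.0, 90.3 and 80.5 CPM on day 18 (-0.92 ± 0.19). FZD4 had the smallest change among the called genes that were lower.

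The remaining called genes with a symbol encode proteins of membranes and organelles. SLC1A6 (ENSSSCG00000013833), a glutamate transporter, was at 12.9, 13.1 and 4.36 CPM on day 0 and at 0.358, 0.982 and 0.683 CPM on day 18, which is 15.0-fold lower (log2 fold change -3.91 ± 0.74, adjusted p = 0.0387). CLDN11 (ENSSSCG00000011747), a claudin of tight junctions, was at 45.8, 34.4 and 52.8 CPM on day 0 and at 17.4, 10.7 and 17.1 CPM on day 18 (-1.55 ± 0.29, adjusted p = 0.0387). GAA (ENSSSCG00000017156), the lysosomal acid alpha-glucosidase, was at 122, 83.8 and 139.6 CPM on day 0 and at 35.1, 58.5 and 63.5 CPM on day 18 (-1.14 ± 0.23, adjusted p = 0.0498). SYT3 (ENSSSCG00000003222), a synaptotagmin that senses calcium in vesicle fusion, was at 44.1, 39.5 and 47.8 CPM on day 0 and at 15.5, 20.5 and 22.1 CPM on day 18 (-1.18 ± 0.23, adjusted p = 0.042). The groups were apart in all 4. Of the 3 identifiers without a symbol, ENSSSCG00000027519 had 26, 27 and 27 counts on day 0 and 3, 2 and 5 on day 18 (-3.06 ± 0.60), and ENSSSCG00000026608 had 38, 64 and 47 counts against 7, 9 and 7 (-2.75 ± 0.39).

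Of the called genes with a symbol, 10 (GNL3, WDR75, BMS1, CFD, BLNK, ALDH2, SLC1A6, SYT3, GAA and ADAMTS14) overlap another gene in the RefSeq table of a later assembly. Whether the counting used strand is not stated, so reads of the overlapping genes cannot be told apart.

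Lists of the ciliated and secretory cells of the lining held no called gene. Of 14 tested genes of ciliated epithelium, 0 were called, 6 were lower and 0 higher at an unadjusted p under 0.05 (7.64% of all genes were lower), with a median log2 fold change of -0.52. FOXJ1 itself was at 1441, 1592 and 1206 CPM on day 0 and at 1426, 1285 and 1516 CPM on day 18, with overlapping groups (-0.00 ± 0.20). The 6 lower genes were DNAI2, CCDC40, RSPH4A, SPAG17 and CFAP43, which encode parts of the cilium or of its assembly, and the transcription factor RFX3. CCNO was the 1 member with a log2 fold change above 0 (1.67 ± 1.15). It was at 15.3, 99.96 and 13.8 CPM on day 0 and at 5.81, 193 and 212 CPM on day 18, with overlapping groups. DNAI2, a dynein chain, was at 260.4, 366 and 265 CPM on day 0 and at 209.5, 118 and 217 CPM on day 18 (-0.71 ± 0.31), and CFAP43 was at 254.5, 136.5 and 206.5 CPM against 132, 61.9 and 92.9 CPM (-1.06 ± 0.41). Library 2 of day 18 was the lowest for both. Without it 0 of the 14 were lower, and without library 1 or library 2 of day 0 it was 1 of the 14. Over the list, summed levels overlapped, at 3333 to 4103 CPM on day 0 and 2905 to 3545 CPM on day 18.

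OVGP1 accounted for 16.8%, 5.13% and 14.3% of all counts in the day 0 libraries and for 1.0%, 3.82% and 6.29% in the day 18 libraries. The day 0 library 2 lay within the range of day 18, and the difference did not pass the test (log2 fold change -1.76 ± 1.04, unadjusted p = 0.106). Mean OVGP1 was 139553 and 145211 CPM for days 0 and 3, then 4501 to 12833 CPM from day 6 to day 15, and 41170 CPM for day 18. The secretory list, which holds OVGP1, had 10 tested genes, 7 of them with a log2 fold change above 0 (median 0.48). It also holds general epithelial genes (EPCAM, CDH1, KRT8, KRT18 and CLDN4), so its median does not describe secretory cells alone. OVGP1, LTF and CDH1 were the members below 0, with LTF at -0.90 ± 0.48 and overlapping groups. At an unadjusted p under 0.05, 2 of the 10 were higher, EPCAM and CLU, and 0 lower (11.7% and 7.64% of all genes). CLU, a secreted chaperone of the same secretory list, was at 4809, 4295 and 4682 CPM on day 0 and at 20811, 8074 and 5612 CPM on day 18 (1.32 ± 0.51, adjusted p = 0.171), with library 1 of day 18 the highest. The steroid receptor genes had overlapping groups. ESR1 was at 1122, 894 and 1106 CPM on day 0 and at 566, 676 and 999 CPM on day 18 (-0.48 ± 0.32), and PGR at 95.5, 121 and 114 CPM against 57.5, 181 and 131 CPM (0.16 ± 0.54).

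Among genes for ion and fluid transport, 3 of 15 were lower and 1 was higher at an unadjusted p under 0.05 (7.64% and 11.7% of all genes). In this list 0 were called, and the median was -0.58. The water channel AQP5 was at 76.8, 38.8 and 84.6 CPM on day 0 and at 2.50, 22.1 and 23.4 CPM on day 18 (-2.06 ± 0.86), and the carbonic anhydrase CA12 at 27.9, 23.1 and 22.3 CPM against 4.29, 1.75 and 11.4 CPM (-2.07 ± 0.74). The groups were apart in both. SLC4A4, a bicarbonate cotransporter, was the higher member, at 28.6, 38.5 and 24.5 CPM on day 0 and at 65.5, 44.8 and 73.1 CPM on day 18 (1.0 ± 0.33). Without library 1 of day 0 or library 1 of day 18, 1 member of the list was lower, and without library 3 of day 18, 5 were.

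Cell cycle genes followed more than 1 pattern. Of 15 tested, with a median of 0.56, 0 were called. At an unadjusted p under 0.05, 4 were higher and 0 lower (11.7% and 7.64% of all genes). The 4 were MCM2, MCM3, MCM4 and MCM5, subunits of the helicase that opens DNA for replication. MCM3 was at 10.6, 25.4 and 13.5 CPM on day 0 and at 81.3, 41.1 and 63.1 CPM on day 18 (1.90 ± 0.56), and all 4 MCM genes had separate groups. The genes of mitosis did not follow the day. TOP2A was at 16.6, 127 and 22.0 CPM on day 0 and at 34.6, 75.6 and 159 CPM on day 18, and CCNB1 at 7.56, 55.5 and 9.14 CPM against 5.99, 53.1 and 56.9 CPM. In both, library 2 of day 0 lay between libraries 2 and 3 of day 18. Without library 1 of day 0, 2 of the list were higher. Over the cycle, mean MCM3 was 7.91, 12.5, 65.1 and 61.8 CPM for days 3, 9, 15 and 18.

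In the lists of further cell types, steroid response and synthesis, prostaglandins, chaperones and innate defence, 0 members were called. Counting each direction separately, 0 to 3 members of a list passed an unadjusted p of 0.05, or 0 to 4 with any single library left out. Of 4 tested genes of granulosa, theca and cumulus cells, 3 were lower (median -2.48), and of 6 of striated muscle, 3 were lower (median -1.63), against 7.64% of all genes. LHCGR, the receptor of luteinizing hormone, had 13, 13 and 12 counts on day 0 and 5, 1 and 3 on day 18, and CYP17A1, a steroid-making enzyme of theca cells, had 17, 26 and 76 counts against 11, 6 and 1. Without library 3 of day 0 or library 2 of day 18, 1 gene of the first list was lower, and without library 1 of day 18, 1 of the muscle list was. INHA, a marker of granulosa cells, was at 49.8 CPM in library 3 of day 0 and at 0.0976 to 1.66 CPM in the other 5 libraries. The granulosa, theca and cumulus list, summed over its 6 genes with an identifier, tested or not, was at 24.7 to 87.8 CPM on day 0. On day 18 it was at 7.20 to 23.5 CPM. The striated muscle list, of 6 tested genes, had a summed level of 181 to 320 CPM on day 0 and 20.8 to 114 CPM on day 18. The part of either in the genes that were lower on day 18 was not tested.

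The other days of the cycle, which share the same day 0 libraries, show where the levels of both days lie. The 22 called genes that were higher on day 18 had median ratios to their day 0 means of 1.06, 1.40, 1.51, 1.60, 1.95 and 2.35 for days 3, 6, 9, 12, 15 and 18. All 22 had means above day 0 on every day from day 6, and 15 had their highest mean on day 18. GNL3, for example, averaged 34.99, 58.2, 84.2 and 104 CPM for days 3, 12, 15 and 18. CFD was highest on day 12, at 1099 ± 224 CPM (SD, n = 4), and had come down to 458 ± 203 CPM (n = 3) on day 18. MYC was at 216 ± 86.3 CPM on day 15 (n = 4) and 205 ± 189 CPM on day 18 (n = 3), which did not differ beyond their spread.

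The 14 called genes that were lower on day 18 had median ratios to day 0 of 0.387, 0.297, 0.382, 0.258, 0.216 and 0.205 for these days. Day 0 had the highest mean in 12 of them, and SYT3 and RORB were highest on day 3. PAPPA2, for example, fell from 49.5 ± 18.4 CPM on day 0 to 7.38 ± 1.90 CPM on day 3 (n = 3 each) and was at 4.83 to 9.78 CPM from day 6 on. SYT3 came down in smaller steps, with means of 47.8, 33.3, 25.6 and 19.4 CPM for days 3, 6, 12 and 18. Since the genes were chosen for their levels in the same day 0 libraries, a difference of other days from day 0 is partly built into these ratios. In 13 of the 36 called genes the day 18 mean lay between the means of days 15 and 0, as it did in 5197 of all 15665 genes tested.

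**Figure D4:**
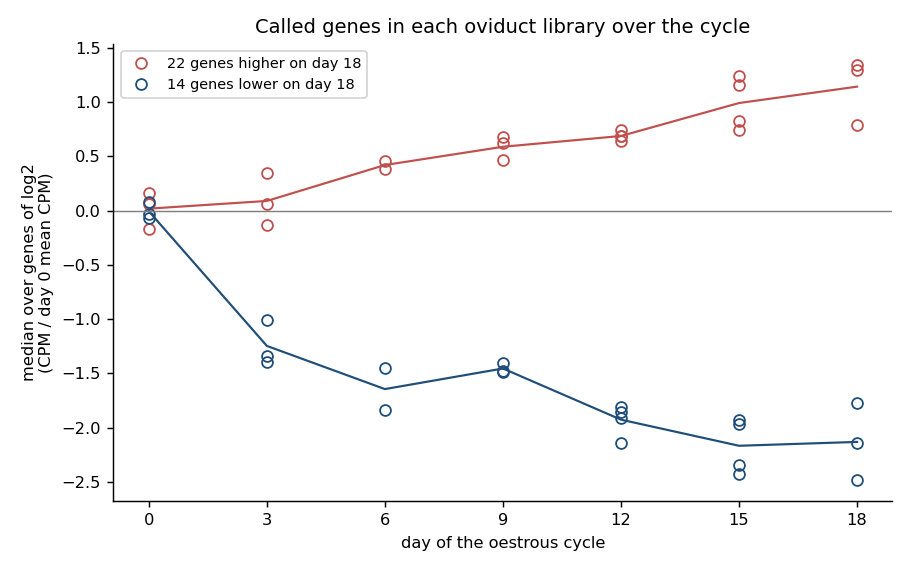
Each symbol is 1 oviduct library, and the y axis gives the median over genes of the log2 ratio of its CPM to the mean day 0 CPM, for the 22 called genes higher on day 18 (red) and the 14 lower (blue). The x axis gives the day of the cycle and the lines join the means of the libraries of each day. The blue libraries are at -1.01 or below from day 3 on, and the red ones rise from near 0 on day 3 to between 0.79 and 1.34 on day 18.

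The same pair of days was compared in the endometrium and the ovary, which the study took from the same animals. In the endometrium, 29 of 15341 genes (0.189%) were called, 20 higher (0.13%) and 9 lower (0.0587%) on day 18, and in the ovary edgeR called 0 of 15638 genes, while 710 had an unadjusted p under 0.05. Of the 22 called genes higher in the oviduct, 17 had a positive log2 fold change in the endometrium, 4 of them at an unadjusted p under 0.05, against 7.45% of all genes tested there. All 14 lower genes were negative in the endometrium, 4 of them at an unadjusted p under 0.05, against 7.52% of all genes. Over all 15341 genes, 7511 were positive and 7824 negative there. Since both tissues came from the same animals, the endometrium is not an independent comparison. ENSSSCG00000026608 was the 1 gene called in both tissues, with -2.79 ± 0.54 in the endometrium (adjusted p = 0.0458). CLDN11 was 13.4 ± 7.03 CPM on day 0 and 1.58 ± 1.04 CPM on day 18 in the endometrium (n = 3 each, -3.06 ± 0.64, adjusted p = 0.0612). CFD was 283 ± 142 CPM and 1050 ± 199 CPM there (1.89 ± 0.62), close to the change in the oviduct. In the ovary, 7 of the 22 higher genes were positive and 0 of the 35 tested passed an unadjusted p of 0.05, against 2.97% of all genes positive and 1.57% negative at that p.

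**Figure D5:**
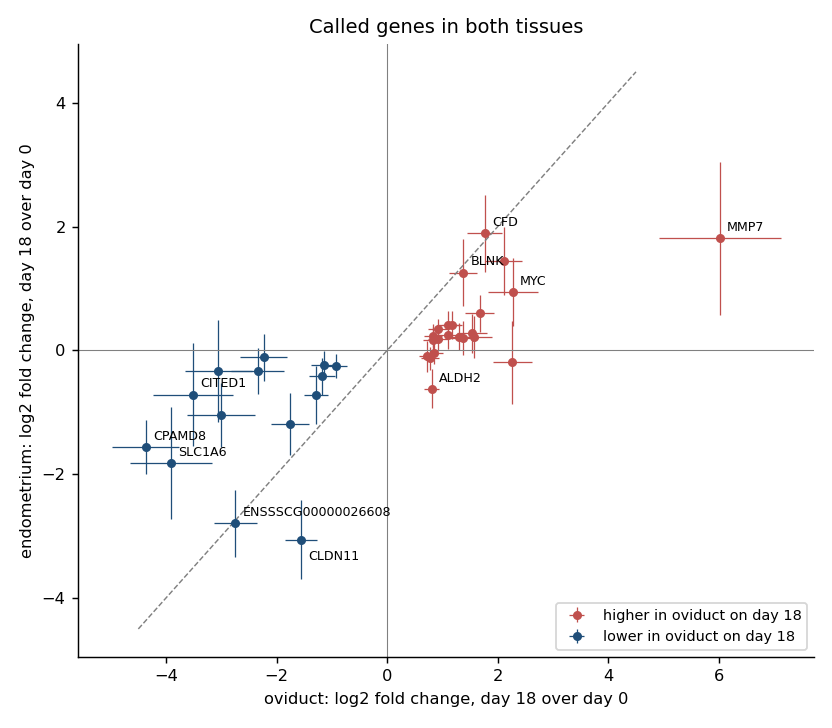
Each point is 1 of the 36 genes called in the oviduct, with its log2 fold change of day 18 over day 0 in the oviduct on the x axis and in the endometrium on the y axis. Bars are standard errors, and the dashed line marks equal change. All 14 blue points, lower in the oviduct, are below 0 in the endometrium, and ALDH2 is the lowest of the 22 red points, at -0.62 in the endometrium.

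A test of the difference between the changes in the oviduct and in the endometrium called 101 of 16292 genes (0.62%), 62 with a positive (0.381%) and 39 with a negative difference (0.239%). This fit does not take the animal into account. A fit of days 0 and 18 alone called 3 genes, and 2 with the replicate number as a block. None of the 36 genes called in the oviduct was among the 101, and ALDH2 was the nearest, at 0.80 in the oviduct and -0.62 in the endometrium, a difference of 1.39 ± 0.35 in the joint fit of both tissues (adjusted p = 0.0511). The RPL and RPS genes supplied 10 of the 101, all positive. RPL38, for example, was at 253, 317 and 361 CPM on day 0 and at 435, 1083 and 411 CPM on day 18 in the oviduct, and at 596, 358 and 423 CPM against 312, 321 and 332 CPM in the endometrium, a difference of 1.53 ± 0.32 (adjusted p = 0.0346). In the oviduct the groups were apart with library 2 of day 18 far above the rest, and in the endometrium library 1 of day 0 was the highest. The test called 0 genes without library 1 or 3 of day 0 or library 2 of day 18 of the oviduct, or without library 3 of day 0 or library 1 of day 18 of the endometrium. It called 1 without library 1 of day 0 and 49 without library 3 of day 18 of the endometrium, and 57 without library 2 of day 0 of the oviduct. It called 202 and 487 without libraries 1 and 3 of day 18 of the oviduct, and 220 without library 2 of day 0 of the endometrium. Against the ovary, the test called 0 of 16601 genes, with 2041 at an unadjusted p under 0.05 by edgeR and 131 called by DESeq2, and the smallest adjusted p among the 36 was 0.1.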

How the data were processed

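The authors deposited 1 table of whole-number read counts per Ensembl gene, with 66 libraries of ovary, endometrium and oviduct; 1 of the 67 labelled samples was not analysed here. Per the study's methods, paired-end reads were trimmed and mapped with tophat2 to the Sus scrofa 10.2 genome with Ensembl 78 transcripts, and the submitters' processing notes name featureCounts. Replicates were not pooled. Whether counting used strand, or how it treated reads that fit several genes, is not given in the sources used here. The columns show tissue and day but not which labelled sample they hold, so they were used as replicates of their group.

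Counts were tested with edgeR 4.0.16 (R 4.3.3). All 22 oviduct libraries were fitted together with the day as factor (filterByExpr, TMM scaling, robust quasi-likelihood), and day 18 was contrasted with day 0, with Benjamini-Hochberg adjustment over 15665 genes. Other days thus share in the estimate of the spread. Days 12 and 15 have 4 oviduct libraries each although the methods give 3 gilts a day, so some may share an animal. CPM are scaled by TMM. Errors of log2 fold changes are standard errors from the fit. The floor of 3 counts covers counting error only. With 3 libraries against 3, an exact permutation test of 1 gene cannot give a two-sided p below 0.1 and was not used. The endometrium and ovary were fitted likewise, and the difference between tissues was tested in a joint fit. Alternatives were DESeq2 1.42.0, its size factors in edgeR, no filter, a fit of days 0 and 18 alone, a replicate block and leaving out each library.

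Symbols were found for 11804 of 25322 identifiers and for 27 of the 36 called genes. Coordinates are not given, since the gene table used for names is of another assembly. The genes to name were, in each direction, the 12 with the largest fold change among called genes whose groups did not overlap and whose higher group had 10 or more counts in every library, plus called list members. Of the called genes, 1 is counted but not reported here by name. Of those without a symbol, 2 in each direction are given by identifier, and ENSSSCG00000009206 in addition among the results flagged for a closer look. The comparison and the gene lists were chosen with earlier results of these data known, and the symbol families after these values were seen. A set of simulated counts held 200 changed genes. The fit found 23 of 66 at a log2 change of 1, 51 of 67 at 2 and 60 of 67 at 3. It made 7 false calls among 15606 genes. Whether that number holds for the real oviduct libraries, where leaving out 1 library gave 2 to 1308 called genes, was not tested. No evidence in the labels ties replicates to separate extractions, so p-values measure the spread between these libraries.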

Additional observations from a re-analysis of the deposited data

Results flagged for a closer look

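In 48 sets of 4 oviduct libraries of 1 day, looked at for the 24 genes chosen by rule, 4 held a library far from the other 3. Chance gives about 1 in 20 if values are normally distributed, which was not tested. ADAMTS14 was at 13.7 CPM in library 4 of day 12 (others 6.90 to 7.94) and at 22.2 CPM in library 3 of day 15 (others 8.02 to 9.73). SLC1A6 was at 0.803 CPM in library 3 of day 15 (others 0.184 to 0.264, at or below the floor of 3 counts). ENSSSCG00000009206 was at 1.53 CPM in library 4 of day 15 (others 0.830 to 0.893).

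The change from day 0 to day 18 differed between the oviduct and the endometrium in 101 genes (edgeR's quasi-likelihood test of the difference, Benjamini-Hochberg adjusted). The fit does not take the animal into account, and with the replicate number as a block, in days 0 and 18 alone, 2 genes were called (3 without the block). The difference is oviduct minus endometrium on the log2 scale. For IFNE, an interferon of reproductive epithelia, it was -3.82 ± 0.69 (adjusted p = 0.0346), with 3.89 to 6.30 CPM on day 0 and 2.15 to 2.73 CPM on day 18 in the oviduct, against 0.923 to 2.51 CPM and 5.15 to 20.1 CPM in the endometrium. For MYCN, a relative of MYC, it was 5.33 ± 1.05 (adjusted p = 0.0346), with 2.29 to 24.6 CPM on day 0 and 0.408 to 1.23 CPM on day 18 in the endometrium. For HOXB5 it was -2.22 ± 0.43 (adjusted p = 0.0346). For the ribosomal protein genes it was 1.53 ± 0.32 in RPL38, 1.38 ± 0.29 in RPS16, 1.43 ± 0.32 in RPS13 and 1.29 ± 0.29 in RPS18, each highest in library 2 of day 18 in the oviduct and in library 1 of day 0 in the endometrium.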

How the results depend on the processing

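The number of genes called in the oviduct was 36 in the fit of all oviduct libraries. It became 29 with DESeq2's size factors and 29 with no filter, with 28 of the 36 still called in the latter. With DESeq2 it was 889. It was 0 in a fit of days 0 and 18 alone and 0 with the replicate block, where 1758 and 1369 genes had an unadjusted p under 0.05. Leaving out 1 library gave 2 to 1308. No called gene reversed under any of the 11 alternatives that kept it (RORB was filtered out of the fit of days 0 and 18 alone, with and without the block), and the cause of the changed counts was not tested. The number of genes with a difference from the endometrium was 101. It became 104 with size factors, 52 with no filter and 329 with DESeq2. The fit of days 0 and 18 alone gave 3, the replicate block 2, and leaving out 1 library 0 to 487. The number of genes with a difference from the ovary, 0, became 131 with DESeq2 and 0 to 107 without 1 library.

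Same-numbered libraries of days 0 and 18 had correlated deviations of 0.256, -0.113 and -0.318, so the numbers do not pair them, and the block shares only a number. Between tissues, 6 of 6 endometrium libraries correlated best with their own number (r 0.0865 to 0.226), a hint from the data, and 3 of 6 of the ovary did. The alternatives for the gene lists were chosen after seeing the data. With 3 libraries a group, smaller changes were often missed on simulated data.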

Other observations

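Some of the largest changes did not pass the adjusted threshold, and the following were chosen after their values were seen. GRM4, a glutamate receptor, had 380, 48 and 241 counts on day 0 and 0, 1 and 10 on day 18 (log2 fold change -6.03, edgeR adjusted p = 0.0515). TNNI1, the troponin I of slow muscle, had 123, 153 and 295 counts against 10, 34 and 19 (-3.21, adjusted p = 0.0521). MAFF, a small basic leucine zipper factor, had 21, 33 and 49 counts against 579, 202 and 55 (2.88, adjusted p = 0.0521), with library 1 of day 18 the highest, as for MYC. HOXA11 had 0 counts in all 3 day 0 libraries and 0, 103 and 8 on day 18, so that 1 library carried nearly all of them.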
